A study of Rattus norvegicus with 3 samples.

Results

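The Begain to Ppp2r5c interval is a stretch of 2 Mb of rat chromosome 6 (rn4, 133500000 to 135500000). Its members are the regions of the 3 deposited lists of differential methylation that overlap these borders by at least 1 bp. There are 120 such regions of 95306 in all, with 53 in the MLP vs. C list, 40 in the MLP vs. MLP-F list and 27 in the MLP-F vs. C list. All 120 enter the description, with no filter on the score. The paper kept a much smaller part of each MLP list, by a cut on false discovery rate. It reported no differentially methylated regions for MLP-F against C. Listing alone thus does not make a region one that the paper accepted as differentially methylated. The interval was chosen by the scores of its Ppp2r5c region and of a region near Begain, so these scores are given as a description and were not tested. The region near Begain lies 183 kb outside the lower border. It is reported beside the 120 members and is not counted among them.

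Methylated DNA was captured from livers of male Wistar rats at 1 day of age with a methyl-CpG binding domain (MBD) protein and sequenced. The groups are named by the diet fed to the dam during pregnancy, which was low protein (MLP), low protein with added folic acid (MLP-F) or a control diet of normal protein (C). Each group is 1 library of pooled DNA, from 6 animals by the labels and from a larger number by the study's methods, and all animals of a group came from 1 litter. With 1 library per group there is no replicate spread, diet and litter cannot be told apart, and no difference between diets was tested. Each list names regions where the first library of a pair was higher than the second, with a score from MACS, the peak caller. The score is 10 times the −log10 of a p that compares the reads of those 2 libraries. It is not a methylation level, and it grows with the depth of both libraries, of which MLP was the deepest and C the shallowest by the study's read counts. The lowest score in the lists is 50, a p of 1e-05. Regions lower in the first library of a pair were not analysed here.

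Ppp2r5c encodes a regulatory B subunit, of the B56 family, of protein phosphatase 2A, a major serine/threonine phosphatase. Such subunits direct the catalytic subunit to its substrates. Begain encodes a protein first found as a partner of guanylate kinase-like proteins at brain synapses. In mammals the imprinted Dlk1-Dio3 domain lies between these genes. Imprinted genes are expressed from 1 parental copy, set by methylation laid down in the germ line, and in mice and humans the domain is controlled by differential methylation near Meg3. Its paternally expressed genes include Dlk1, a growth regulator of fetal tissues, Rtl1, derived from a retrotransposon, and Dio3, which inactivates thyroid hormone. Meg3 is a long non-coding RNA expressed from the maternal copy, as are the small RNAs of the domain. In RefSeq's annotation of the newer assembly GRCr8 the genes follow in the order Eml1, Begain, Dlk1, Meg3, Rtl1, Dio3, Ppp2r5c, Traf3 and Xrcc3. Between Begain and Ppp2r5c that annotation has 5 protein-coding genes, 10 long non-coding RNAs, 59 microRNA genes and 84 snoRNA genes. Positions on GRCr8 were not carried over to rn4, so no region was assigned to a gene of the domain.

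The Ppp2r5c region spans 2263 bp (chromosome 6, 135272898 to 135275160) and is the longest of the 120 members. The paper's annotation places it in an intron of Ppp2r5c. It scored 1439 in MLP vs. C and 1758 in MLP vs. MLP-F, while no MLP-F vs. C region overlaps it. The region was thus in both MLP lists, at place 41 of 35998 against C and 27 of 33730 against MLP-F. Over the whole series 67 MLP vs. C regions scored 1000 or more. Of these, 63 were also in MLP vs. MLP-F, 39 of them with 1000 or more there, and 26 overlapped an MLP-F vs. C region. Of the 73 MLP vs. MLP-F regions with such a score, 4 overlapped an MLP-F vs. C region. On chromosome 6 it stood at place 2 of 1786 and place 3 of 1600. No other member came near it in score. The second highest score in the interval was 187 in MLP vs. C and 578 in MLP vs. MLP-F. Neither MLP list held another region within 25 kb of it, and the nearest lay 60.6 kb away in MLP vs. C (score 52.6) and 27.2 kb away in MLP vs. MLP-F (score 73.3). The nearest MLP-F vs. C region lay 22.8 kb away and scored 55.95. The annotation names tandem repeats (trf) and low-complexity sequence (dust) for the region. Whether these lie within it was not checked, since no rn4 sequence was used.

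The Begain region, also annotated as intronic, spans 1729 bp (133315399 to 133317127). It scored 258 in MLP vs. C and 1811 in MLP vs. MLP-F, and again no MLP-F vs. C region overlaps it. Its place was 1173 of 35998 against C and 25 of 33730 against MLP-F. Against MLP-F it thus ranked just above the Ppp2r5c region, and against C far below it. Over the whole series 73 MLP vs. MLP-F regions scored 1000 or more, of which 62 were also in MLP vs. C. In MLP vs. C these 62 had a median score of 1270, and 8 of them, the Begain region included, scored 258 or less. The Begain region also had close neighbours, which the Ppp2r5c region lacked. There were 5 other MLP vs. C regions and 6 other MLP vs. MLP-F regions within 25 kb of it. Over each whole list the medians were 1, the 95th percentiles 3 and 4 and the maxima 8 and 12. MLP-F vs. C had none, and its nearest region lay 34.7 kb away. This count of neighbours was chosen after the positions were seen. The 2 Mb below the lower border, which hold the Begain region, were dense in all 3 lists. They had 52 MLP vs. C, 48 MLP vs. MLP-F and 39 MLP-F vs. C regions. The medians over tiles of 2 Mb were 22, 20 and 17. The annotation names simple repeats of the units TCTG, CGG and CCCCAG for this region, besides trf and dust.

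**Figure D1:**
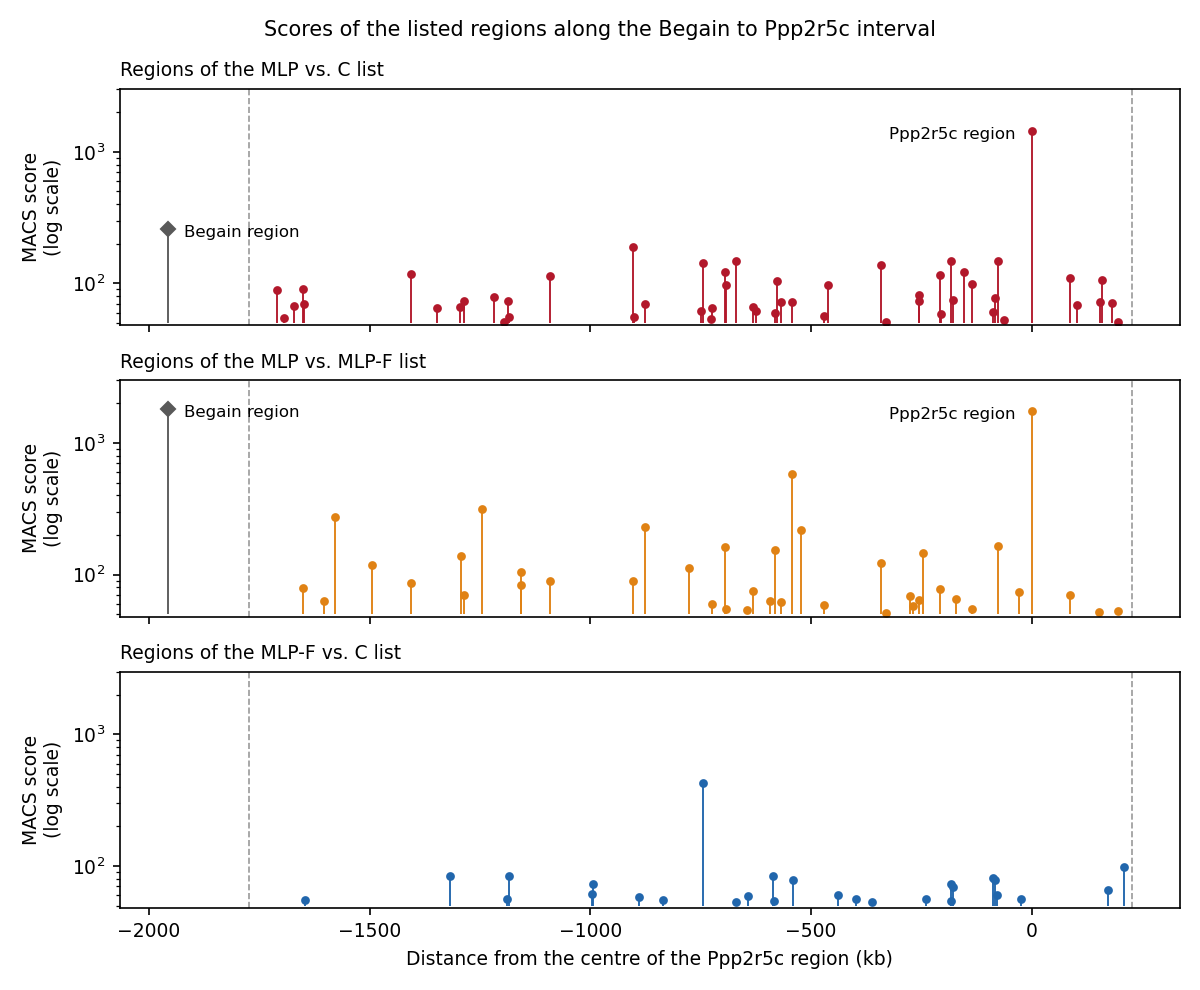
MACS score (log scale) of each listed region against its distance in kb from the centre of the Ppp2r5c region, 1 panel per list, with circles for the 120 members, a grey diamond for the Begain region and dashed lines for the borders of the interval. The Ppp2r5c region stands at 1439 and 1758 in the MLP lists and is absent from MLP-F vs. C, and the Begain region stands at 258 and 1811.

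Beside the borders the scores ran from 50.7 to 191. In MLP vs. C the first region inside the lower border (133563717 to 133564161) scored 88.7 and the last outside it (133437591 to 133438246) scored 79.7. In MLP vs. MLP-F the scores there were 79.6 inside and 54.5 outside, and in MLP-F vs. C they were 55.5 inside and 59.2 outside. At the upper border the last region inside (135469708 to 135470285) scored 50.7 in MLP vs. C and 53.3 in MLP vs. MLP-F. The first MLP vs. C region outside (135501173 to 135501634) scored 66.9, and the first MLP vs. MLP-F region outside (135592752 to 135593279) scored 191. In MLP-F vs. C the last inside scored 98.2 and the first outside 57.0. The borders are round positions.

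Listed regions were denser in the interval than on the chromosome as a whole. MLP vs. C had 26.5 regions per Mb in the interval, against 12.1 on chromosome 6 and 12.9 over all placed chromosomes. MLP vs. MLP-F had 20.0 per Mb in the interval, against 10.8 and 12.1. MLP-F vs. C had 13.5 per Mb, against 8.81 and 9.08. For regions with a score of 100 or more the direction turned in MLP-F vs. C, with 0.5 per Mb in the interval and 1.63 on chromosome 6, and it stayed the same in both MLP lists. The same stretch of chromosome 6 was dense on both sides of the interval. The interval held 53 MLP vs. C regions, against 52 in the 2 Mb next to it on the Begain side and 70 in the 2 Mb on the Traf3 side. For MLP vs. MLP-F it held 40, against 48 and 60, and for MLP-F vs. C it held 27, against 39 and 34. The density of the interval was therefore not above that of its neighbours, except for MLP vs. C on the Begain side, where the counts differed by 1. Over 1348 tiles of 2 Mb on the placed chromosomes, the median was 22 MLP vs. C regions (quartiles 13 and 36), 20 MLP vs. MLP-F regions (14 and 30) and 17 MLP-F vs. C regions (8 and 26).

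**Figure D2:**
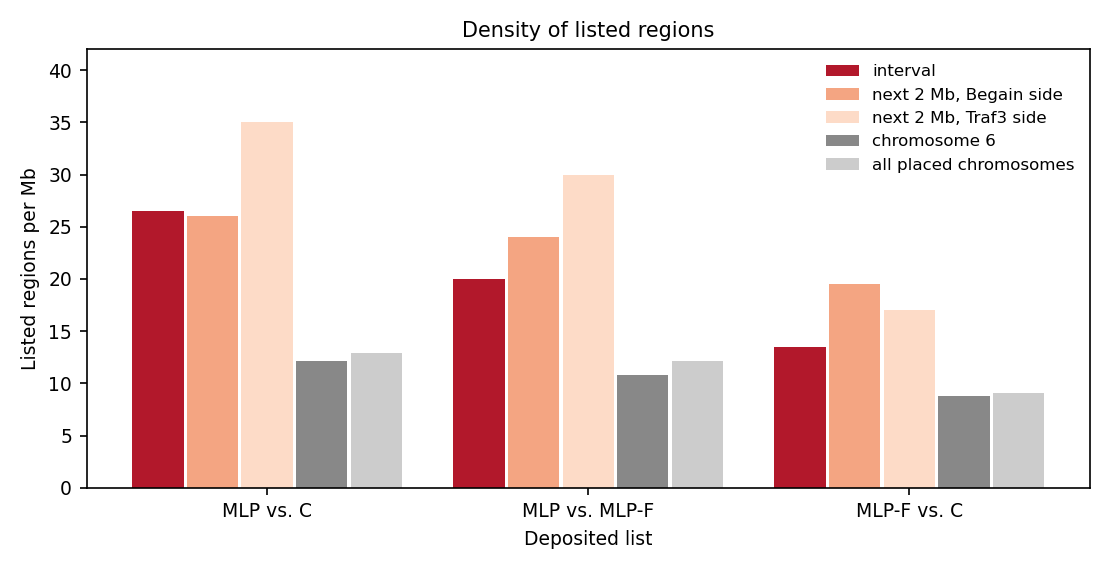
Listed regions per Mb for each list in the interval, the 2 Mb next to it on either side, chromosome 6 and all placed chromosomes, as bars from 0 with no replicate error. The interval stands at 26.5, 20.0 and 13.5 regions per Mb, above chromosome 6 (12.1, 10.8 and 8.81) in each list and below the 2 Mb on its Traf3 side.

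Apart from the Ppp2r5c region, the scores in the MLP lists were close to those elsewhere, and those in MLP-F vs. C were lower. The median MLP vs. C score was 72.9 (quartiles 61.6 and 106), against 77.3 over all placed chromosomes. For MLP vs. MLP-F it was 78.6 (62.3 and 140), against 81.7. Scores of 100 or more were held by 15 of 53 MLP vs. C regions (28.3%, against 31.1% of the whole list) and by 15 of 40 MLP vs. MLP-F regions (37.5%, against 36.8%). MLP-F vs. C had a median of 59.9 against 69.4 and a score of 100 or more at 1 of 27 regions (3.70%, against 19.1% of the whole list). In the 2 Mb windows on either side, 6 of 39 and 8 of 34 MLP-F vs. C regions reached 100. These shares rest on few regions, which are not replicates, and were not tested. Lengths ran from 292 to 2263 bp in MLP vs. C, 322 to 2263 bp in MLP vs. MLP-F and 377 to 1260 bp in MLP-F vs. C, with medians of 653, 692 and 728 bp.

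Of the 53 MLP vs. C regions of the interval, 20 (37.7%, 95% Wilson interval 25.9 to 51.2%) were also listed in MLP vs. MLP-F, against 39.4% of the whole list. They were 20 of the 40 MLP vs. MLP-F regions (50%, interval 35.2 to 64.8%), against 42.1%. In MLP-F vs. C, 8 of the 53 were also listed (15.1%, interval 7.85 to 27.1%), against 22.6%. These were 8 of the 27 MLP-F vs. C regions (29.6%, interval 15.9 to 48.5%), against 31.8%. Each of these intervals covers counting error only and holds the percent of its whole list. The intervals treat the regions as independent, though these are neighbours called from the same 3 libraries. The Ppp2r5c region, by which the interval was chosen, is among the 20. These comparisons are thus a description and no test. No MLP vs. C region of the interval was in both other lists, where 1.11% were over the whole list. None of the 40 MLP vs. MLP-F regions overlapped an MLP-F vs. C region (1.27% of the whole list), and none of the 27 MLP-F vs. C regions overlapped an MLP vs. MLP-F region (1.67%). Each pair of lists shares a library, so these overlaps are not independent. Merged by overlap, the 120 regions form 92 loci. There were 20 loci in both MLP lists, 8 in both lists against C, and 0 in all 3. Listed in MLP vs. C alone were 25 (47.2% of its 53 regions, against 39.1% of the whole list). In MLP vs. MLP-F alone there were 20 (50% of 40, against 57.8%), and in MLP-F vs. C alone 19 (70.4% of 27, against 68.1%).

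All 20 regions shared by the MLP lists had the same start and end in both. So did all 14194 such overlaps of the whole series, whereas 0 MLP vs. C regions had both borders of a region in the MLP-F vs. C list. The MLP lists thus differ in which regions they hold and in the scores, and not in the borders. Among the 20 shared regions, 12 scored higher against C and 8 scored higher against MLP-F. Over the whole series these were 45.8% and 48.8% of the shared regions, and the rest were tied. The scores differed by less than 1.5 times at 15 of the 20, and the share over the whole series is not given here. For example, the region at 134942436 to 134943125 scored 51.1 in both lists. That at 134932757 to 134933451 had a score of 139 in MLP vs. C and one of 122 in MLP vs. MLP-F. Close to the cut of 1.5 times, the region at 135064464 to 135065309 scored 115 against C and 77.7 against MLP-F. The other 5 of the 20 lay beyond that cut. The region at 134730065 to 134731132 (1068 bp) scored 578 against MLP-F, at place 265 of that list, and 72.6 against C. That at 134396890 to 134397533 scored 232 against MLP-F and 69.2 against C. In the other direction, the region at 134371193 to 134371563 had a score of 187 in MLP vs. C and one of 90.0 in MLP vs. MLP-F. That at 135139051 to 135139785 scored 99.6 against C and 55.0 against MLP-F. That at 134581518 to 134582416 scored 97.4 against C and 54.3 against MLP-F. These regions carry no gene name in the paper's annotation, which covers regions that the authors selected. Whether they lie in genes was not analysed here.

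**Figure D3:**
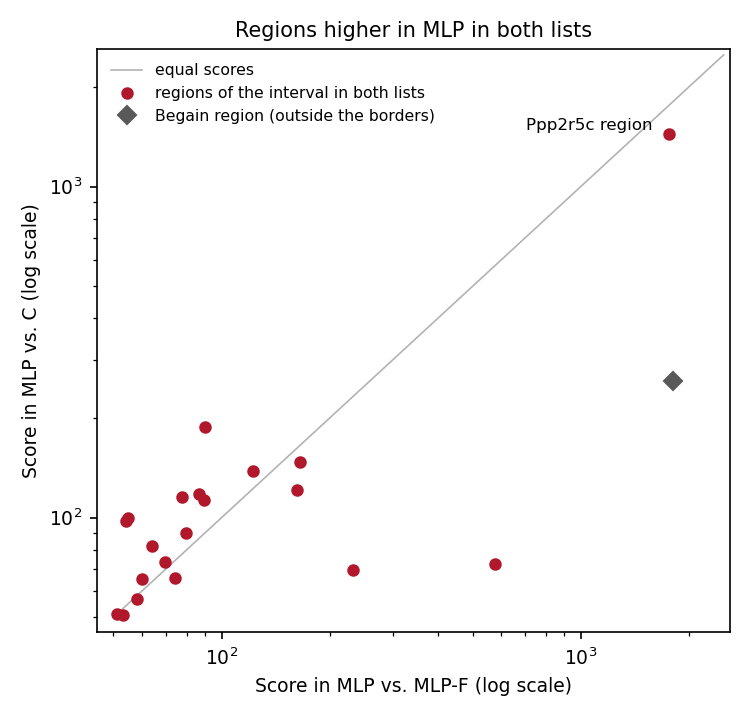
Score in MLP vs. C against score in MLP vs. MLP-F, both on log scales, for the 20 regions of the interval in both lists (circles) and the Begain region (diamond); the line marks equal scores. The Ppp2r5c region is high on both axes, while the Begain region (1811 and 258) and the regions with scores of 578 and 232 against MLP-F lie below the line.

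The 20 regions of the MLP vs. MLP-F list alone (50% of 40, against 57.8% of the whole list, not tested) had a median score of 78.6. They included 5 of the 10 highest-scoring MLP vs. MLP-F regions of the interval. The highest were at 134028080 to 134029036 (score 315), 133693733 to 133694637 (272) and 134750605 to 134751930 (218), followed by 134691629 to 134692049 (155) and 135027892 to 135028887 (146). The remaining 5 of the 10 were shared with MLP vs. C, and besides those given above they were at 135198225 to 135198743 (165 against MLP-F and 147 against C) and 134578319 to 134579057 (163 and 121). A region absent from a list did not pass the score of 50 there, which does not show that the libraries were equal.

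The 25 regions of the MLP vs. C list alone (47.2% of 53, against 39.1% of the whole list) had scores of 51.0 to 122. The difference in share rests on few regions and was not tested. The highest, at 135119997 to 135120825, was the only one of the 10 highest-scoring MLP vs. C regions of the interval that no other list held. Of these 10, 6 were shared with MLP vs. MLP-F, among them 133867575 to 133868435 (117 against C and 86.5 against MLP-F), and 3 with MLP-F vs. C.

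The highest MLP-F vs. C region of the interval lies at 134528993 to 134530252 (1260 bp) and scored 430, at place 76 of 25578 and place 2 of 1300 on chromosome 6. The next highest of the interval (135483172 to 135483548) scored 98.2. An MLP vs. C region (134529223 to 134530313) overlaps the first and scored 142. Both libraries of the low protein diet were thus listed above C at this locus, and MLP was not listed above MLP-F. The score against C was larger for MLP-F than for MLP. These libraries differ in depth, and no cause of the difference in score was tested. Regions lower in MLP than in MLP-F were not analysed here. Of the 8 loci listed in both comparisons with C, 4 scored higher in MLP vs. C and 4 in MLP-F vs. C, against 59.2% and 40.8% over the whole series. At 134602976 to 134603679 the MLP vs. C score was 147, and the MLP-F vs. C region there scored 52.9. At 135089995 to 135090721 it was 148, and the MLP-F vs. C region, which starts at 135089999, scored 73.2. This locus and 3 others of the 8 lie within 102 kb, on the Begain side of the Ppp2r5c region. The others start at 135094230 (74.6 in MLP vs. C and 68.8 in MLP-F vs. C), 135186812 (60.9 and 81.6) and 135190912 (76.9 and 78.0). The 10 highest MLP-F vs. C regions of the interval also included 134089390 to 134090101 (83.5), where an MLP vs. C region scored 55.1. The rest of these 10 not given above overlap no region of the MLP lists. They were at 133955492 to 133956009 (83.4), 134686402 to 134687390 (83.3), 134733521 to 134734276 (78.15) and 134279806 to 134280481 (72.5).

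Along the interval the regions of all 3 lists lay mostly in the part nearer to Ppp2r5c. The second Mb held 36 of 53 MLP vs. C regions (67.9%), 26 of 40 MLP vs. MLP-F regions (65.0%) and 19 of 27 MLP-F vs. C regions (70.4%). In bins of 100 kb the highest counts over the 3 lists were 14 (135000000 to 135099999) and 13 (134600000 to 134699999), and each of the 20 bins held at least 1 region of some list. In the bin with 13, an MLP vs. C region (134690911 to 134691376, score 59.0) and an MLP-F vs. C region (134690635 to 134691380, score 54.3) overlap. The MLP vs. MLP-F region with a score of 155 starts within 1 kb of them and overlaps neither. The longest stretch with no listed region was 94.1 kb (134183509 to 134277561), followed after 2 MLP-F vs. C regions by one of 90.7 kb (134280482 to 134371192), while the median gap between loci was 13.1 kb. Of the 5 longest gaps, 1 follows directly on the Ppp2r5c region and spans 84.1 kb. The MLP lists thus held no region over 188 kb (134183509 to 134371192). Which genes lie in this stretch on rn4 was not analysed here.

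**Figure D4:**
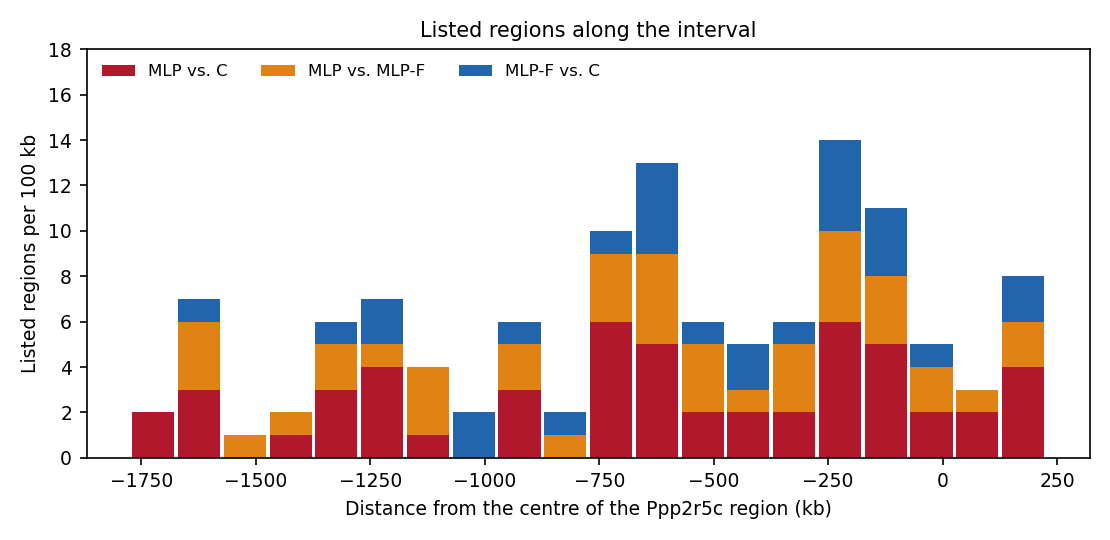
Number of listed regions per bin of 100 kb, by the middle of each region, against the distance of the bin's centre from that of the Ppp2r5c region in kb, stacked by list. The bins with 14 and 13 regions lie on the Begain side of the Ppp2r5c region, and the second Mb holds 81 of the 120 regions.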

How the data were processed

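The 3 libraries (MLP, MLP-F and C, 1 per group) were grouped by the diet in their labels. Per the study's methods, Bowtie was used by the authors for alignment to rn4 with 1 alignment per read pair. MACS then compared the libraries in pairs, with the first as treatment. The submitters' processing notes also name CASAVA, and the sources used here give no versions. The deposited lists give a position and a score for each region, and no read counts, so depth and precision per region are unknown. They hold only the authors' comparisons of libraries.

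Starts were converted to 1-based positions. Regions were named only where the paper's annotation of nearest genes holds the same start and end, and its numbers were not used. Places count tied scores as the last place. Chromosome lengths are the largest end over the lists. Shared means an overlap of at least 1 bp. The overlap code was tested on simulated regions. Regions were named by rule: the Ppp2r5c and Begain regions, the 10 highest-scoring regions of each list, loci of all 3 lists and the regions next to the borders. Other named regions were picked with their values in view. The members and gene lists were chosen with earlier results of these data known. Python 3.11.15, numpy 2.4.6, pandas 2.3.3, SciPy 1.17.1 and matplotlib 3.10.9 were used.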

Additional observations from a re-analysis of the deposited data

How the results depend on the processing

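Of 37 alternative values, 27 stayed within 1.5 times the reported count, density or median, or within the Wilson interval of the reported percent. The 10 that did not all came from the setting with a score of at least 100. Taking only regions wholly inside the borders left the count of each list unchanged. With borders from the Begain region to the Ppp2r5c region the counts were 53 (MLP vs. C), 42 (MLP vs. MLP-F) and 29 (MLP-F vs. C) regions and 93 loci. With a score of at least 100, which by construction leaves fewer regions, these were 15, 15 and 1 (7.5, 7.5 and 0.5 per Mb) and 26 loci. In both MLP lists the density at that score was still above that of chromosome 6 (3.62 per Mb against C and 3.85 against MLP-F), and in MLP-F vs. C it was below (1.63 per Mb). At that score in both lists, 4 of the 15 MLP vs. MLP-F regions were also in MLP vs. C (26.7%). In MLP-F vs. C, 1 of the 15 MLP vs. C regions was also listed (6.67%), and the 1 MLP-F vs. C region was also in MLP vs. C (100%). Shares of the whole lists at that score are not given here, and those for all scores are no match for these percents. The scores of the Ppp2r5c and Begain regions were copied from the lists and have no alternative. No replicate could be left out, and no paired analysis was possible because each group is 1 library.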

Other observations

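Around the interval, the paper's annotation names 3 further genes whose regions lie in the lists. A region in an intron of Eml1, a microtubule-binding protein, lies on the Begain side (132844436 to 132845455). It scored 129 in MLP vs. C and overlaps no MLP vs. MLP-F region. The MLP-F vs. C region that overlaps it (132844396 to 132845516) scored 1514, at place 4 of 25578 and first on chromosome 6. On the other side, a region in an intron of Traf3, an adaptor of TNF receptor and innate immune signalling (135944523 to 135946389), scored 128 in MLP vs. C and 90.2 in MLP vs. MLP-F. A region at an exon of Xrcc3, a gene of recombinational DNA repair (136594303 to 136595114), scored 125 in MLP vs. C and 370 in MLP vs. MLP-F. No MLP-F vs. C region overlaps those of Traf3 and Xrcc3. The regions of Traf3 and Xrcc3, like those of Begain and Ppp2r5c, which chose the interval, were thus in both MLP lists, as were 39.4% of all MLP vs. C regions. Of the 6 genes listed for the Dlk1-Dio3 domain (Dlk1, Meg3, Rtl1, Rian, Mirg and Dio3), 0 are named in that annotation. RefSeq's annotation holds 4 of the 6 under these names. Of the 5 B56 subunits of protein phosphatase 2A, the 1 named is Ppp2r5c, by which the interval was chosen. The paper's annotation names 2.49% of RefSeq's 23154 protein-coding genes, a share that leaves out non-coding genes such as Meg3. The paper's annotation covers regions that the authors selected, so these are not counts of regions at these genes.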
